A study of Danio rerio with 18 samples.

Results

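Genes of the contractile apparatus were followed in whole sox10 mutant and wild-type zebrafish. Members were all genes whose symbol begins with myh, myl, mybpc, tnnc, tnni, tnnt, tpm, ttn, actn or acta, which gave 90 of the 25581 genes in the tables. Of these, 28 are best known from fast skeletal muscle, 10 from slow skeletal muscle and 16 from the heart. There are 2 titin genes, which all striated muscle uses, and 15 actin, myosin, tropomyosin and alpha-actinin genes of smooth muscle or non-muscle cells. A further 8 were given no class, and 11 share a prefix but encode other proteins, such as the myosin light chain kinases, the ubiquitin ligases mylipa and mylipb and the thiopurine methyltransferases. The rule by symbol leaves out the slow myosin heavy chains smyhc1, smyhc2 and smyhc3 and the alpha-actins actc1a to actc1c, which were kept in a separate list of other sarcomere proteins.

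The sarcomere is the repeating unit of striated muscle, in which thick filaments of myosin pull on thin filaments of actin that are anchored by alpha-actinin. Calcium binds troponin C, troponin I then releases its hold, and tropomyosin shifts along the actin to open the myosin binding sites. Fast, slow and cardiac muscle each use their own forms of most of these proteins, and teleosts often kept paired copies of a gene.

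RNAseq was carried out on whole bodies at 45 hours post-fertilization (hpf) and at 4 and 7 days post-fertilization (dpf), with 3 libraries for each genotype and stage. The study's mutant allele is ci3020, a deletion that takes away the first coding exon of sox10, and controls were stage-matched wild-type relatives. The labels name no other allele and no treatment. Each library came from a pool of 10 to 25 wild types or 10 to 15 sox10-/- embryos at 45 hpf and of 10 to 15 wild types or 10 to 12 sox10-/- larvae at 4 dpf. The tables deposited for 4 and 7 dpf hold the same values on all 25896 lines, so 12 distinct libraries were analyzed, and the stage at which the shared values were measured cannot be told from the files. They are called the 4 dpf table below.

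Values are TPM, a transcript's share of all transcripts on a fixed total, which is scaled for transcript length, so levels of different genes can be set side by side. Read depth is not known from TPM, and no counting interval can be given. Tests used limma on log2(TPM + 1), with adjusted P over all genes that reached 1 TPM in 3 of the 6 libraries compared (6 of 12 for fits across tables). A gene was called at an adjusted P of 0.05 or below and a ratio of at least 5 to 4 between groups. The labels do not say whether the pools came from separate crosses, so P-values measure only the spread between these libraries. In bulk RNA, fewer cells of a type and less RNA per cell cannot be told apart.

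The libraries were not equally scaled across genes. The median gene differed by -0.25 between mutants and wild types at 45 hpf and by -0.33 in the 4 dpf table on the log2 scale, so differences of members are read against these shifts or after median-of-ratios rescaling. The 13 mitochondrial protein-coding genes took 6.20 to 8.19% of TPM in the 4 dpf wild types and 19.5, 10.7 and 17.1% in mutants 1, 2 and 3. A gene without a symbol, the most abundant of its kind in the table, took 1.62 to 4.08% in the same wild types and 15.6, 3.70 and 7.70% in the mutants, and 12.3% in 45 hpf mutant 3 against 0.892 to 3.09% in the other 45 hpf libraries. sox10 itself was 9.47, 14.0 and 11.7 TPM in 45 hpf wild types and 11.2, 9.14 and 6.61 TPM in mutants, and was not called in either table, and since some transcription remains from the deletion allele, its level does not check the labels. Marker genes of the heart were low in whole bodies: myl7 (myosin light chain 7) spanned 3.13 to 14.3 TPM and the natriuretic peptide gene nppa was at most 1.14 TPM over the 12 libraries.

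Among the members, fast-muscle genes had by far the highest summed level. In wild types, the 28 fast members summed to 2.02, 2.26 and 2.57% of all TPM at 45 hpf and to 4.42, 3.69 and 5.78% in the 4 dpf table, whereas the 10 slow members summed to 0.0309 to 0.0507% and the 16 cardiac members to 0.026 to 0.0405%. Over all 12 libraries, 6 of the 90 members never reached 1 TPM and none was at 0 throughout.

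The leading member was tpma (ENSDARG00000033683), the tropomyosin of fast muscle. It stood at 2164, 3328 and 2941 TPM in 45 hpf wild types and at 11407, 9068 and 14941 TPM in 4 dpf wild types, where its mean was the 7th highest of all genes. In mutants it was 1932, 1112 and 454 TPM at 45 hpf and 718, 9907 and 3033 TPM at 4 dpf. All 3 mutants lay under all 3 wild types at 45 hpf, as in 23.7% of all genes, whereas 4 dpf mutant 2 fell inside the wild-type range.

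Next came the fast light chains mylpfa, the regulatory light chain, and mylz3, an essential light chain. mylpfa was 3989 ± 608 TPM (SD, n = 3) in 45 hpf wild types and 7031 ± 1544 TPM in 4 dpf wild types, with mutants at 3617, 2492 and 1634 TPM and at 952, 6322 and 2701 TPM. mylz3 was 3426 ± 638 TPM and 6455 ± 681 TPM in the same wild types, with mutants at 3409, 2311 and 1708 TPM and at 949.7, 7591 and 2974 TPM. Both genes were lowest in the same libraries, mutant 3 at 45 hpf and mutant 1 at 4 dpf, as were 13223 of 17043 and 11051 of 17291 genes.

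The fast troponin T gene tnnt3b, whose protein ties the troponin complex to tropomyosin, was 1236, 1541 and 1585 TPM in 45 hpf wild types and 3699.9, 3039 and 5326 TPM in 4 dpf wild types. Its mutant values of 1502, 874 and 628 TPM and of 351, 4205 and 1286 TPM overlapped the wild types at both stages through 1 library each, mutant 1 at 45 hpf and mutant 2 at 4 dpf.

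Slow-muscle members were far lower on the TPM scale. tpm3, a tropomyosin of slow muscle, had 170 ± 17.2 TPM (SD, n = 3) in 45 hpf and 116 ± 24.2 TPM in 4 dpf wild types, and 123, 106 and 76.4 TPM and then 42.9, 99.8 and 66.6 TPM in mutants. tnnc1b, the calcium-binding troponin C of slow muscle, had 129 ± 19.1 and 134 ± 33.7 TPM in wild types, and 96.8, 73.5 and 46.1 TPM and then 22.8, 142 and 74.8 TPM in mutants. Levels of both genes were lower in all 3 mutants than in all 3 wild types at 45 hpf, as in 23.7% of all genes. At 4 dpf they overlapped between genotypes. tpm2 had 91.8 ± 9.96 and 93.1 ± 23.2 TPM in wild types, and the slow troponin I gene tnni1c had 29.5 ± 1.51 and 20.0 ± 6.89 TPM, with 1.58, 17.2 and 6.61 TPM in the 4 dpf mutants. The slow heavy chain smyhc1, outside the symbol rule, was 40.5, 42.3 and 41.9 TPM in 45 hpf wild types and 85.1, 71.5 and 136 TPM in 4 dpf wild types.

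The members named for the heart did not mark the heart alone. Their most abundant gene, tnnt2d, a troponin T, had 74.1 ± 4.10 TPM (SD, n = 3) in 45 hpf wild types and 111 ± 14.0 TPM in 4 dpf wild types, far above myl7, and the atrial heavy chain myh6 was at most 0.175 TPM in any library. tnnt2d was 54.1, 51.5 and 26.3 TPM in 45 hpf mutants and 20.7, 102 and 58.7 TPM in 4 dpf mutants, the library order also seen in tpma at 4 dpf. The tropomyosins tpm4a and tpm1 had 64.5 ± 4.78 and 23.5 ± 1.96 TPM in 45 hpf wild types and 21.8 ± 3.66 and 55.0 ± 7.70 TPM in 4 dpf wild types, so that their order turned around. tnnt2e, another troponin T, had 29.7 ± 2.41 and 61.0 ± 13.8 TPM. This class is therefore called by its list and not read as a measure of the heart.

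Among smooth-muscle and non-muscle members, the regulatory light chains myl12.1 and myl12.2 led. myl12.1 had 239.7, 251 and 272 TPM in 45 hpf wild types and 222, 225 and 172 TPM in mutants, and 130.5, 100.3 and 100.2 TPM and then 68.1, 95.6 and 80.1 TPM at 4 dpf. All 3 mutants lay below all 3 wild types in both tables, as in 23.7% of all genes at 45 hpf and 42.8% at 4 dpf. myl12.2 had 62.6 ± 9.31 TPM (SD, n = 3) in 45 hpf and 97.7 ± 3.21 TPM in 4 dpf wild types. actn4, a non-muscle alpha-actinin, had 76.4 ± 8.21 and 29.8 ± 4.34 TPM, and the essential light chain myl6 had 32.0 ± 7.22 and 34.9 ± 6.36 TPM.

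**Figure D1:**
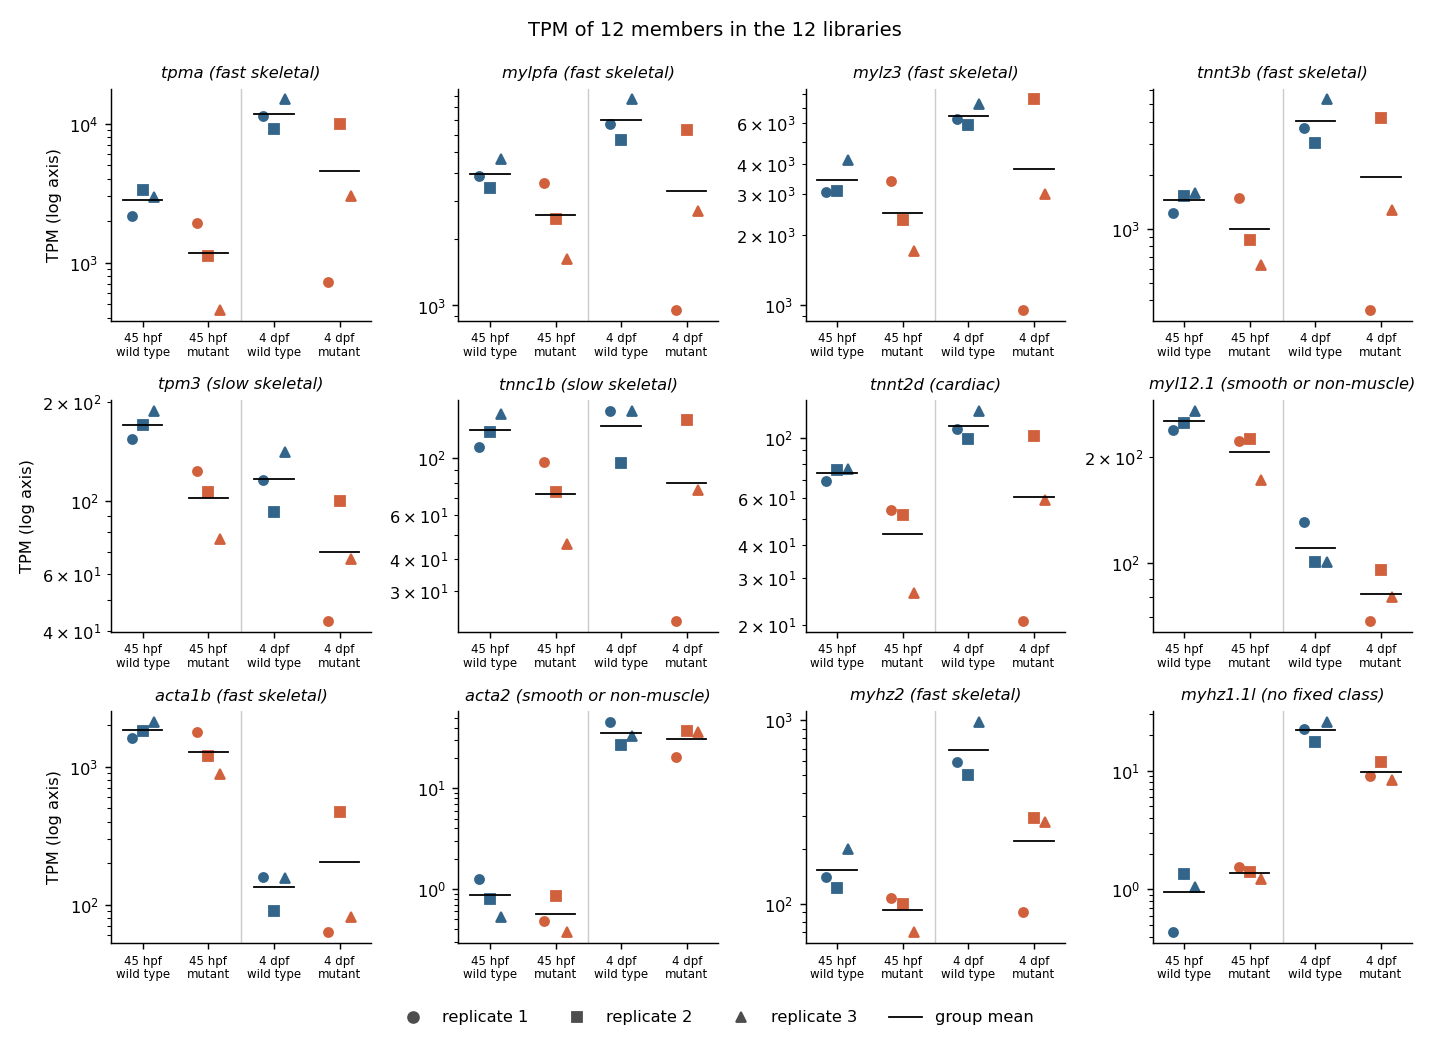
TPM of 12 members on log axes in the 3 libraries of each genotype and table (blue, wild type; red, mutant), with marker shapes for replicates and black bars for group means. tpma in 4 dpf mutants spread from 718 to 9907 TPM, whereas myhz2 and myhz1.1l in all 3 of those mutants lay under all 3 wild types, as did 42.8% of all genes.

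Wild-type libraries of the 2 tables were compared to see which forms of each protein were used at which stage. More members were called higher than lower in the 4 dpf table, acta2 and the fast heavy chains among them, while acta1b, tnnt3a, mybpc2b and the non-muscle myh9b and actn4 were among those called lower. Of 79 members tested, 35 were higher and 14 lower, where 25.5% of all 17403 genes tested were called higher and 37.9% lower, and the median member differed by 0.62 against -0.19 for all genes (log2 scale). After rescaling, 45 members were called higher and 14 lower, against 33.7% and 34.0% of all genes. A gene could pass the filter through the 4 dpf libraries alone. Members that did so, such as acta2, mybpc2a and tnnt2b, could hardly be called lower. Without the filter, 38 of 90 members were called higher and 15 lower, against 22.8% and 28.3% of all genes. Stage, table and collection cannot be told apart in this comparison.

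By class, 13 of the 28 fast members were called higher and 5 lower, 3 of 9 slow members higher and 0 lower, and 8 of 14 cardiac members higher and 2 lower. The tested fast and cardiac members include some that passed the filter only through 4 dpf libraries, such as tnni2a.1 and tnnt2b. Of 14 smooth-muscle and non-muscle members, 3 were called higher and 7 lower. Over all genes tested, 25.5% were called higher and 37.9% lower. Neither titin gene was called as deposited, with differences of 0.34 and 0.49, and both were called higher after rescaling.

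The largest rise was that of acta2, the smooth muscle actin. It was 1.27, 0.795 and 0.527 TPM in 45 hpf wild types and 46.1, 26.7 and 33.4 TPM in 4 dpf wild types, a log2 difference of 4.27 ± 0.26 (SE, limma, adjusted P = 3.2e-08). acta2 would have passed the filter through its 4 dpf libraries alone, so it could hardly be called lower. Mutants had like levels, at 0.484, 0.859 and 0.370 TPM and at 20.3, 37.1 and 36.3 TPM. The heavy chain gene myhz1.1l followed, from 0.434, 1.35 and 1.05 TPM to 22.4, 17.4 and 25.8 TPM (log2 difference 3.57 ± 0.21, adjusted P = 2.2e-08). mylipa, a ubiquitin ligase that shares only the prefix, went from 4.50 ± 1.17 TPM to 49.1 ± 4.88 TPM (SD, n = 3), a log2 difference of 3.21 ± 0.22.

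Within fast muscle, the shares of paired copies moved between the tables, and in the tnni2b pair the leading form changed. acta1b, a skeletal alpha-actin, fell from 1613, 1827 and 2131 TPM at 45 hpf to 158, 89.7 and 155 TPM (log2 difference -3.82 ± 0.58, limma, adjusted P = 8.6e-05). Its share of the summed acta1a and acta1b TPM went from 88.4 to 91.3% down to 63.7 to 68.8%, a smaller move than that of acta1b itself, as acta1a fell as well, by 1.69 on the log2 scale. actc1b, an alpha-actin outside the symbol rule, was at 3681 to 4855 TPM and then at 12345 to 18542 TPM in the same libraries.

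tnnt3a fell from 735, 805 and 963 TPM to 107, 75.5 and 88.9 TPM (log2 difference -3.20 ± 0.57, limma, adjusted P = 0.00033). As tnnt3b stood higher at 4 dpf (1.44 ± 0.65, adjusted P = 0.072, and called only after rescaling, at 0.021), the share of tnnt3a in the pair went from 34.3 to 37.8% down to 1.64 to 2.80%. In the troponin I pair, tnni2b.2 rose from 33.8, 43.0 and 28.2 TPM to 300.3, 153 and 439 TPM (2.95 ± 0.71, adjusted P = 0.0029) and tnni2b.1 fell from 38.5, 47.8 and 48.6 TPM to 14.4, 6.95 and 13.1 TPM (-1.93 ± 0.27, adjusted P = 4.1e-05). tnni2b.1 therefore held 52.6 to 63.3% of the pair at 45 hpf and 2.90 to 4.58% at 4 dpf in wild types.

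mybpc2b, a fast myosin-binding protein C that ties neighboring thick filaments to thin ones, fell from 49.8, 49.3 and 52.4 TPM to 4.51, 5.11 and 7.02 TPM (-2.99 ± 0.23, limma, adjusted P = 1.9e-07). Its partner mybpc2a rose from 0.336 ± 0.0731 TPM (SD, n = 3) to 2.58 ± 0.669 TPM, and its share of the pair went from 0.505 to 0.737% up to 29.9 to 32.8%. The sum of the pair was still lower at 4 dpf. In contrast, mylpfb held 18.7 to 26.0% of the mylpfa and mylpfb sum at 45 hpf and up to 20.3% at 4 dpf, with overlapping ranges. These pairs, mybpc2a, acta1a and actc1b were picked out after their values had been seen.

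Pair shares do not depend on the scaling of a library. At 45 hpf the share of myl1 in the sum of myl1 and mylz3, both essential light chains, was 26.8, 27.2 and 27.4% in wild types and 21.8, 17.8 and 15.8% in mutants. In the 4 dpf table it was 8.51, 6.60 and 9.17% in wild types and 4.22, 8.16 and 4.79% in mutants. The mybpc2a share was 0.505 to 0.737% in 45 hpf wild types and 1.02, 1.54 and 1.43% in mutants, and 29.9 to 32.8% and then 39.1, 43.8 and 51.7% in the 4 dpf table. All 3 mutants were outside the wild-type range for myl1 at 45 hpf and for mybpc2a in both tables, and 2 of 3 for myl1 at 4 dpf. mybpc2a was under 1 TPM in every 45 hpf library and was not tested there. Its mutant mean was 114% of the wild-type mean at 45 hpf and 99.1% at 4 dpf, against 58.9% and 57.0% for mybpc2b. Over the 10 shares of fast-muscle pairs and runs computed, genotypes did not overlap in 7 at 45 hpf and in 1, that of mybpc2a, in the 4 dpf table. Some of the 7 moved very little. The 45 hpf share of tnni2a.4 was 99.68 to 99.71% in wild types and 99.23 to 99.67% in mutants. That of tnnc2.2 was 99.87 to 99.92% and 99.81 to 99.86%. Shares of other gene pairs were not computed, so the count is not read as a broad shift between paired copies. The overlapping shares at 45 hpf were those of acta1b, mylpfb and tnni2b.1, the last at 44.5, 55.5 and 62.2% in mutants. No test was made, since 3 against 3 libraries cannot give an exact P under 0.10 and the pairs were chosen with their values in view.

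**Figure D2:**
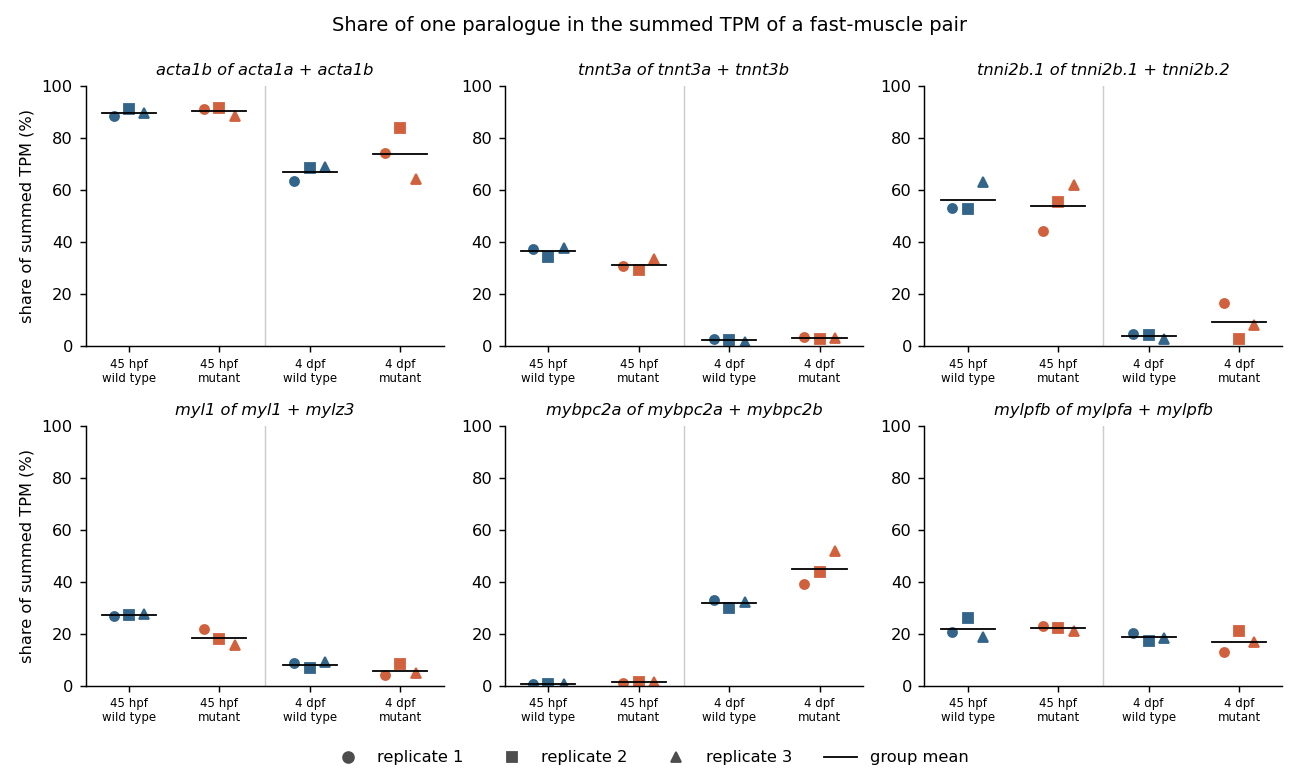
Share of the first-named gene in the summed TPM of a fast-muscle pair, in percent, for each library (blue, wild type; red, mutant; bars, group means). tnnt3a, tnni2b.1 and myl1 held larger shares at 45 hpf than at 4 dpf in all libraries of both genotypes, mybpc2a held smaller ones, and mylpfb overlapped between stages.

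Heavy chain genes of fast muscle rose together between the tables. myhz1.1, the most abundant, rose from 669.6 ± 121 TPM (SD, n = 3) to 3353 ± 1053 TPM (2.30 ± 0.44, limma, adjusted P = 0.00059), and myhz1.2, myhz1.3, myhz2, myhc4 and myha rose by 1.28 to 2.39 on the log2 scale. Of these, myhc4 and myha averaged 0.946 and 0.903 TPM in 45 hpf wild types and were not tested in that table. Both passed the filter here mostly through 4 dpf libraries, so they could hardly be called lower. myhb, the other fast heavy chain tested, went from 0.721 to 1.64 TPM and passed through 4 dpf libraries alone. All of these genes but myhb are neighbors in the RefSeq gene order of assembly GRCz12tu. Neighboring copies that are alike in sequence can share reads. The sequences were not compared here, so how TPM were split among these genes is uncertain. myhz1.1 held 53.5 to 57.7% of the summed TPM of myhz1.1, myhz1.2, myhz1.3 and myhz2 in 45 hpf wild types and 58.5 to 61.1% in 4 dpf wild types. The fast troponin I genes tnni2a.1 to tnni2a.4 form another run of neighbors, in which tnni2a.4 held 99.6 to 99.7% of TPM in all wild types.

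The largest fall outside striated muscle was that of myh9b, a non-muscle myosin heavy chain, from 13.5, 19.0 and 15.6 TPM to 2.84, 2.19 and 4.05 TPM (-2.09 ± 0.31, limma, adjusted P = 6.7e-05). myl12.1 fell by 1.21, actn4 by 1.33 and tpm4a by 1.53 on the log2 scale. tpm1, a tropomyosin of heart and other muscle, rose by 1.18 ± 0.15 and myh7, a ventricular heavy chain, by 2.32 ± 0.32.

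**Figure D3:**
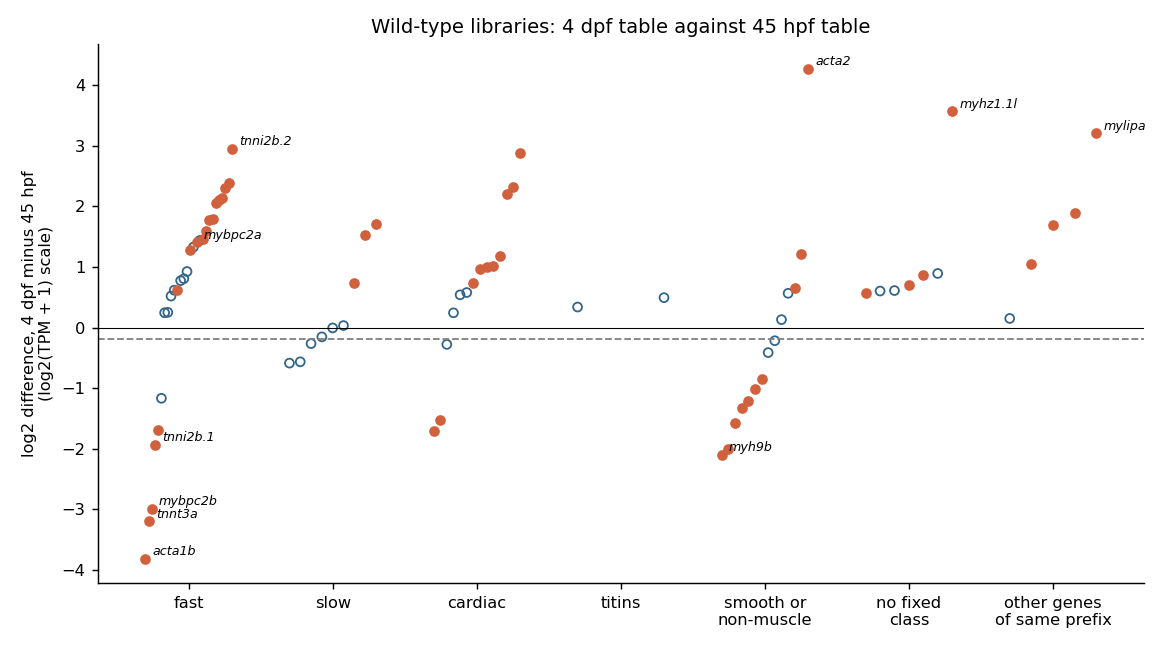
Log2 difference of each tested member between 4 dpf and 45 hpf wild-type libraries (n = 3 each), by class, on the log2(TPM + 1) scale. Filled red points were called, open points were not, and the dashed line is the median of all genes tested (-0.19); acta2 lies highest at 4.27 and acta1b lowest at -3.82.

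To ask how loss of sox10 went with sarcomere RNA at 45 hpf, mutant and wild-type libraries of that table were compared. No member was called: 0 of 68 tested were called lower, against 0.499% of 17043 genes, and 0 higher, against 0.0587%. Still, 61 members had a negative difference, 33 had an unadjusted P under 0.05 in the lower direction (20.2% of all genes) and 0 in the higher (0.980%), and the median member differed by -0.50 against -0.25 for all genes. After rescaling, 2 members were called lower (0.475% of all genes) and 0 higher (0.158%), 51 had a negative difference, 24 had an unadjusted P under 0.05 in the lower direction (12.0%) and 4 in the higher (11.4%), and the median member differed by -0.23.

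Fast members had a median of -0.69, slow members -0.63, cardiac members -0.12 and smooth-muscle or non-muscle members -0.39 on the log2 scale. After rescaling these medians were -0.40, -0.35, 0.098 and -0.14. In 28 of the 68 members all 3 mutants lay below all 3 wild types as deposited, among 23.7% of all genes, and in 0 did all lie above, among 1.94%. Of the 22 fast members tested 11 lay below in this way, as did 4 of 9 slow and 5 of 13 cardiac members. So did 5 of 13 smooth-muscle or non-muscle members and 3 of 6 with no fixed class.

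The 3 members with the smallest adjusted P were tnni2b.1, myl13 and tpm2. tnni2b.1 was 38.5, 47.8 and 48.6 TPM in wild types and 28.8, 20.6 and 17.5 TPM in mutants (log2 difference -1.0 ± 0.20, limma, adjusted P = 0.053, and 0.020 after rescaling). myl13, a light chain gene with no fixed class, was 263, 267 and 328 TPM and then 167, 144 and 76.3 TPM (-1.21 ± 0.25, adjusted P = 0.055, and 0.080 after rescaling). tpm2 was 81.4, 92.6 and 101 TPM and then 61.4, 48.8 and 35.2 TPM (-0.94 ± 0.20, adjusted P = 0.071, and 0.041 after rescaling). In these genes, picked by their P-values, all mutants lay below all wild types, as in 23.7% of all genes. Mutant 3 was lowest in each, as in 13223 of 17043 genes.

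The 3 mutants were unlike each other. Taken over the 22 fast members, the median level was 91.3, 60.8 and 41.1% of the wild-type mean in mutants 1, 2 and 3, where all genes stood at 98.8, 82.4 and 65.5%. After rescaling the fast medians were 91.9, 74.4 and 62.3%. Mutant 3 was the lowest of the 6 libraries in 58 of 68 members, as in 13223 of 17043 genes. Without mutant 1, the library nearest the wild types, 43 members were called lower (31.0% of all genes), 20 of them fast, and 21 after rescaling as well (11.8%). Leaving out any other library gave 0 to 4, with 0.200 to 0.624% of all genes.

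**Figure D4:**
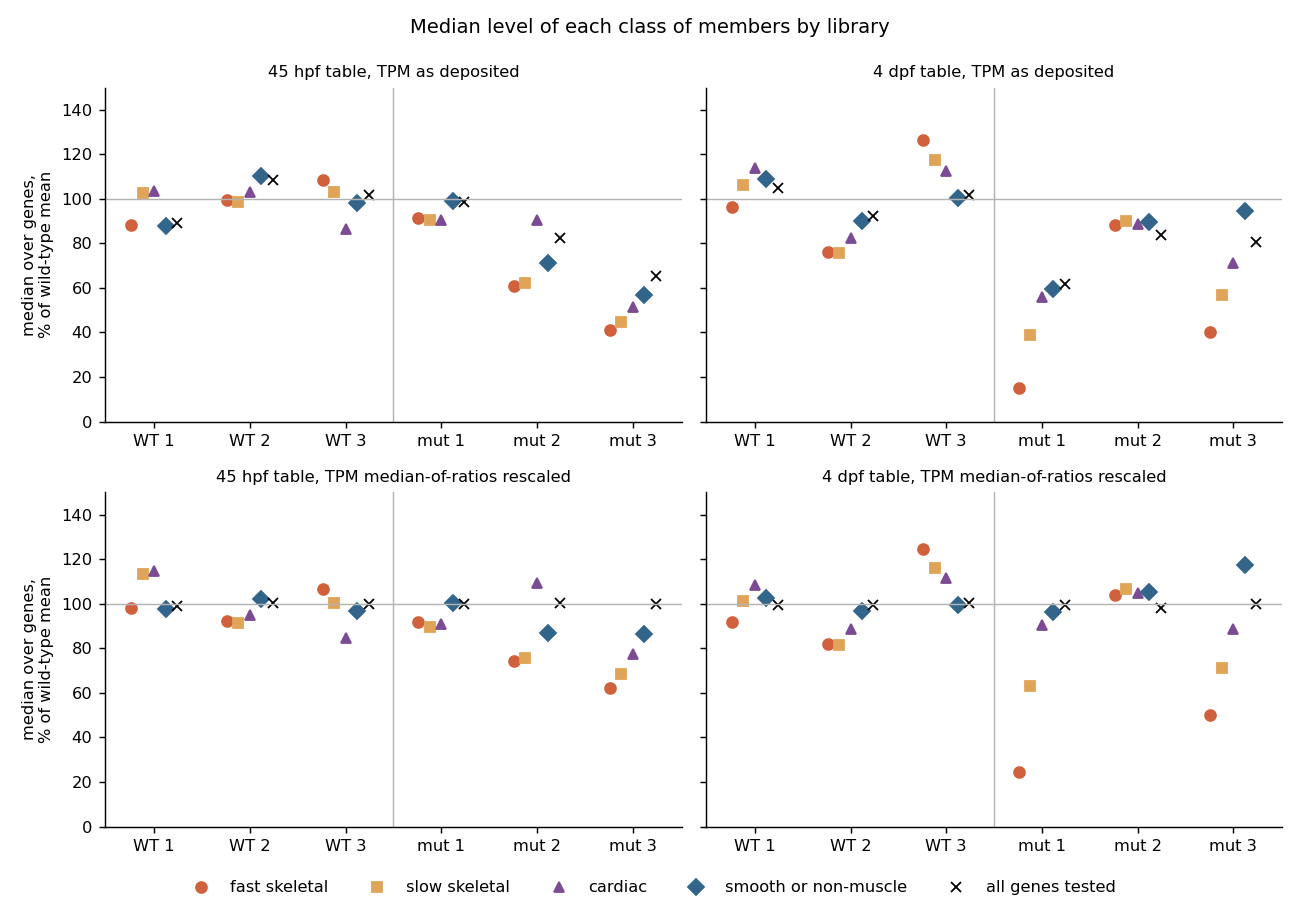
Median over the members of each class of the level in a library as a percent of the wild-type mean, for TPM as deposited (top) and after median-of-ratios rescaling (bottom); the line at 100 marks the wild-type mean and crosses mark all genes tested. Fast members stood at 15.2, 88.2 and 40.2% in the 4 dpf mutants as deposited and at 24.5, 104 and 50.0% after rescaling.

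The same comparison in the 4 dpf table gave few calls among members. Here 5 of 80 tested were called lower, against 18.8% of 17291 genes, and 1 was called higher, against 1.56%. A negative difference was found in 73 members, and the median was -0.65 against -0.33 for all genes. After rescaling no member was called, against 0.150% lower and 0.0810% higher of all genes, where 6 members had lower and 3 had higher levels at an unadjusted P under 0.05, among 22.0% and 17.9% of all genes, and the median was -0.28. In 20 members all 3 mutants lay below all 3 wild types, among 42.8% of all genes, and in 1 they all lay above, among 5.96%.

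Of the called members, 3 encode sarcomere proteins of fast muscle. myhz2, a fast heavy chain, was 588, 502 and 981 TPM in wild types and 90.1, 295 and 277 TPM in mutants (log2 difference -1.76 ± 0.49, limma, adjusted P = 0.047, and 0.063 after rescaling). The inhibitory subunit genes tnni2a.1 and tnni2a.3 lie in the same run of neighbors and went in opposite directions. tnni2a.1 fell from 5.58, 2.57 and 7.04 TPM to 1.61, 1.75 and 1.64 TPM (-1.11 ± 0.30, adjusted P = 0.045, and 0.077 after rescaling). tnni2a.3 rose from 3.66, 3.93 and 3.04 TPM to 8.02, 5.68 and 5.68 TPM (0.71 ± 0.18, adjusted P = 0.044, and 0.058 after rescaling). Genotypes did not overlap in any of the 3, where 42.8% of all genes had all mutants below and 5.96% all above. Both troponin genes are minor copies beside tnni2a.4, which held 96.5, 99.7 and 99.3% of the run in these mutants, and the split of reads among them is uncertain.

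tnni2a.4 itself was 3642, 3170 and 4320 TPM in wild types and 318, 3208 and 1362 TPM in mutants, was not called (-1.72 ± 0.75, limma, adjusted P = 0.13) and is named here because its values set the scale of the run. The other called members were myhz1.1l, mylk4a and tpmt.1. myhz1.1l was 22.4, 17.4 and 25.8 TPM in wild types and 9.05, 11.7 and 8.34 TPM in mutants (-1.09 ± 0.20, adjusted P = 0.043, and 0.058 after rescaling). mylk4a, a kinase of the myosin light chain kinase family, was 6.08, 2.57 and 11.9 TPM and then 0.313, 1.84 and 0.748 TPM (-1.88 ± 0.49, adjusted P = 0.044). tpmt.1, a methyltransferase with no part in the sarcomere, was 13.2, 5.01 and 10.3 TPM and then 3.03, 3.90 and 3.96 TPM (-1.10 ± 0.31, adjusted P = 0.049).

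The 4 fast members of highest mean TPM were not called. tpma differed by -2.05 ± 0.86 (limma, adjusted P = 0.11), tnnt3b by -1.66 ± 0.81, mylpfa by -1.45 ± 0.64 and mylz3 by -1.21 ± 0.68, with mutant 2 inside the wild-type range or, for mylz3, above it. acta1b was 158, 89.7 and 155 TPM in wild types and 62.8, 468 and 80.9 TPM in mutants, so that mutant 2 was the highest library of the 6 and the others the lowest. The non-muscle gene myl6 was not called, at 41.9, 33.3 and 29.5 TPM and 37.2, 27.8 and 39.2 TPM (-0.01 ± 0.20), and stood at 0.39 after rescaling.

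By class, medians were -1.31 in 28 fast members, -0.73 in 8 slow, -0.47 in 14 cardiac and -0.24 in 15 smooth-muscle or non-muscle members on the log2 scale. Calls were 2 lower and 1 higher in the fast class, and 0 in the slow, cardiac, titin and smooth-muscle or non-muscle classes. Over all genes in that fit, 18.8% were called lower and 1.56% higher. Fast members were also the most uneven among mutants: the median coefficient of variation of a fast member was 78.7% over the 3 mutants and 28.9% over the 3 wild types, compared with 25.8% and 15.8% in smooth-muscle or non-muscle members.

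Mutant 1 was below all wild types in 27 of 28 fast members, mutant 3 in 24 and mutant 2 in 7, whereas over all 17291 genes these mutants were below all wild types in 12801, 10023 and 9407. All genes tested stood at medians of 61.8, 83.7 and 80.4% of the wild-type mean in mutants 1, 2 and 3. The slow medians were 39.0, 89.97 and 56.9% of the wild-type mean, the cardiac medians 55.9, 88.8 and 71.2%, and the smooth-muscle or non-muscle medians 59.5, 89.8 and 94.7%. After rescaling, slow members were at 63.2, 106 and 71.1%, cardiac members were at 90.3, 105 and 88.9% and smooth-muscle or non-muscle members at 96.2, 105 and 118%, while fast members kept medians of 24.5 and 50.0% in mutants 1 and 3. Those are also the mutants with the higher shares of mitochondrial genes and of the abundant gene without a symbol, whose part in the result was not tested.

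The number of members called turned on single libraries, most of all on mutant 2. Without it 40 of 79 members were called lower (32.7% of all genes), 23 of them fast, and 1 higher (3.43%). After rescaling that fit called 27 lower (20.2%) and 4 higher (16.1%). Without wild type 2 there were 9 lower (17.5% of all genes). Leaving out any other library gave 0, where only 0.0121 to 0.0583% of all genes were called lower. A pseudocount of 0.1 and the omission of the low-value filter also gave 0, against 0.249% and 0.0686% of all genes.

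**Figure D5:**
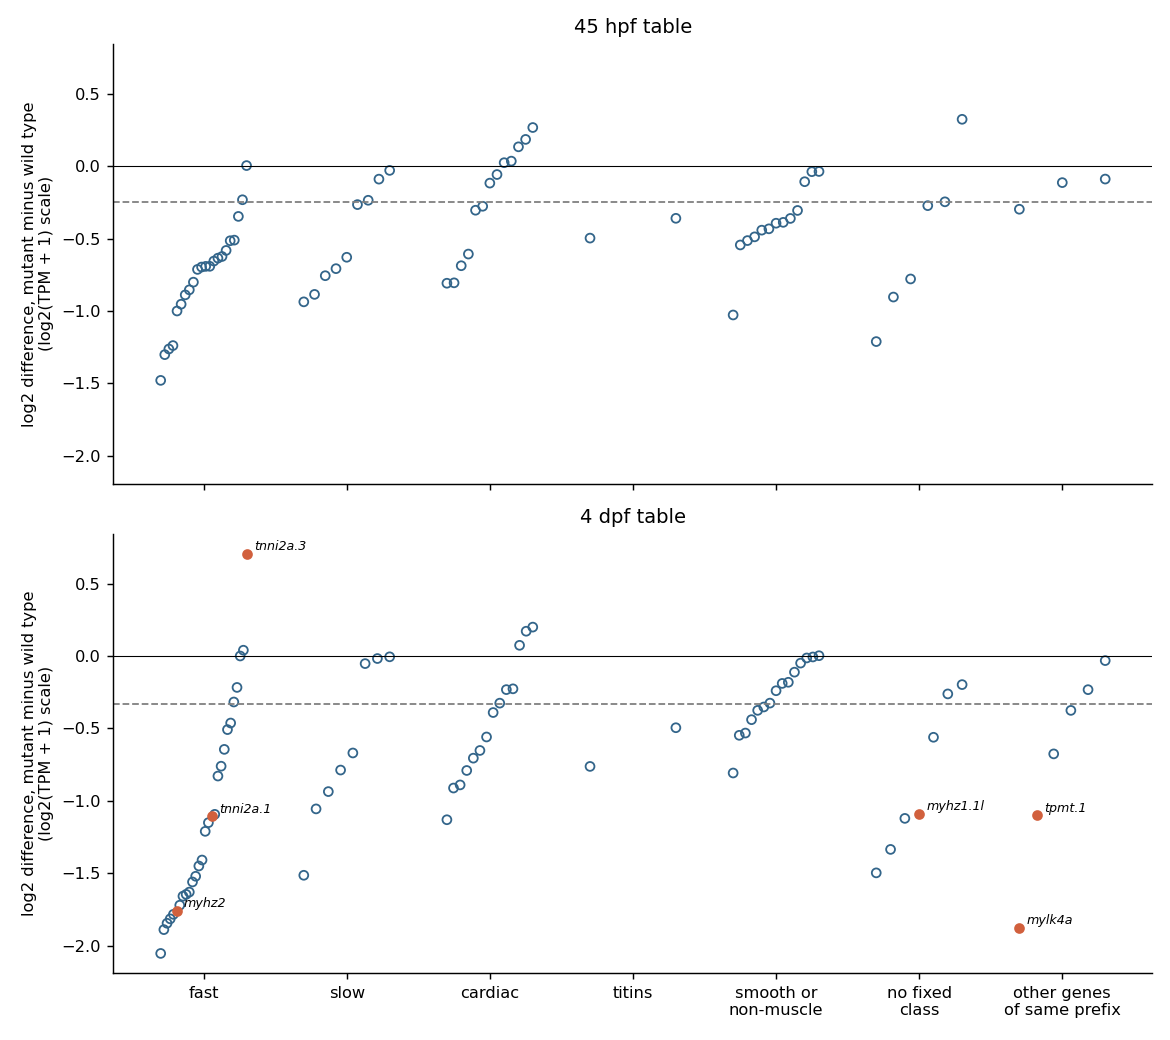
Log2 difference of each tested member between sox10 mutants and wild types (n = 3 each) at 45 hpf (top) and in the 4 dpf table (bottom), by class, on the log2(TPM + 1) scale. Filled red points were called, open points were not, and dashed lines are the medians of all genes tested (-0.25 and -0.33); tpma lies lowest in both panels, at -1.48 and -2.05, without being called.

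Whether the genotype difference itself differed between the tables was tested by an interaction term over the 12 libraries. No member was called of 79 tested, 0 lower against 0.121% of 17403 genes and 0 higher against 0.144%, while 2 below and 1 above had an unadjusted P under 0.05, among 9.06% and 5.99% of all genes. The smallest adjusted P belonged to myhz1.1l, with -1.41 ± 0.30 (limma, adjusted P = 0.077), which had been 1.54, 1.40 and 1.22 TPM in 45 hpf mutants against 0.434, 1.35 and 1.05 TPM in wild types. tnni2a.3 followed with 1.02 ± 0.23 (adjusted P = 0.092). Its 45 hpf mutants at 0.316, 0.336 and 0.335 TPM had all lain under the wild types at 0.779, 0.444 and 0.758 TPM, as in 23.7% of the genes tested there. These levels were too low for tnni2a.3 to be tested at 45 hpf, and it passed the filter here through 4 dpf libraries alone. myhc4 came next with -1.86 ± 0.75 (adjusted P = 0.28), at 8.05, 6.02 and 14.9 TPM in 4 dpf wild types and 0.677, 7.76 and 0.581 TPM in mutants. myh7 had -0.92 ± 0.45 (adjusted P = 0.35). Without 4 dpf mutant 2, 1 of 69 members was called lower (3.44% of all genes) and 0 higher (1.29%).

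Other muscle genes, from lists outside the symbol rule, were read in the same fits. At 45 hpf, 0 of 26 other sarcomere proteins, 0 of 26 genes of muscle calcium and energy and 0 of 25 muscle and heart regulators or assembly factors were called. Over all genes at that stage, 0.499% were called lower and 0.0587% higher. In the table for 4 dpf, 2 of 27, 3 of 27 and 2 of 21 were called lower, against 18.8% of all genes, and 0 higher, against 1.56%, with medians of -1.37, -1.08 and -0.53. The called genes were myoz2a and xirp2a, which bind alpha-actinin or actin, the calcium pump gene atp2a2a, the triad membrane gene sypl2a, the oxygen store mb, and the transcription factors mef2aa and myf6. None of the 7 was called after rescaling, where their adjusted P ran from 0.052 to 0.070.

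mb (myoglobin) was low in all 3 of the 4 dpf mutants. It was 74.0, 64.3 and 124 TPM in 4 dpf wild types and 9.69, 20.1 and 10.3 TPM in mutants (log2 difference -2.63 ± 0.34, limma, adjusted P = 0.038), but 59.3, 79.1 and 89.4 TPM in 45 hpf wild types and 114, 95.2 and 81.0 TPM in 45 hpf mutants. The 4 dpf call was lost without wild type 1 or 3 or mutant 1 or 3, at adjusted P of 0.127, 0.165, 0.114 and 0.130. The interaction was -2.99 ± 0.41 (adjusted P = 0.011, and 0.0034 after rescaling). Genotypes did not overlap at 4 dpf, with all mutants below as in 42.8% of all genes, and overlapped at 45 hpf. Mutant 2 was also far below the wild types in mb, though its fast members had a median of 88.2% of the wild-type mean, beside 83.7% for all genes. Of those 28 fast members, 7 were below all wild types in mutant 2 and 4 above, against 9407 and 2288 of all 17291 genes.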

How the data were processed

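Members and gene lists were chosen with earlier results of these data known. The authors trimmed paired reads of poly-A RNA from pooled whole animals (Trimmomatic 0.39), pseudo-aligned them with kallisto against GRCz11 and deposited TPM (length-scaled transcript abundance) per gene for 18 labelled libraries. Depth per library is unknown, since TPM keep no counts. The 7 dpf table repeats the 4 dpf values and was not used. The authors' own tests used DESeq2, which was not run here. Of 25896 lines, 315 repeated a gene and were dropped. limma 3.58.1 (R 4.3.3) with an intensity trend was fitted to log2(TPM + 1) for genes at 1 TPM or more in 3 of 6 or 6 of 12 libraries, each genotype comparison on its 6 libraries and the others on all 12, with Benjamini-Hochberg adjustment over all genes tested; calls needed an adjusted P of 0.05 and a ratio of 5 to 4. The fits were repeated with 0.1 as pseudocount, without the filter, with a filter at a mean of 5 TPM, after rescaling by median of ratios, with a replicate block and without each library in turn. Code was tested on simulated data. Named members were the 4 highest by mean TPM in the fast, slow, cardiac and smooth-muscle or non-muscle classes, the 6 called members of largest difference per genotype comparison (or, with fewer than 3 calls, the 3 of smallest adjusted P), the 4 of smallest interaction P and the 4 largest rises and falls between wild types; other names were chosen after their values were seen. All 90 members matched RefSeq (GRCz12tu), used only for gene order.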

Additional observations from a re-analysis of the deposited data

Results flagged for a closer look

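The genotype difference of mb differed between the tables by the interaction test, at -2.99 on the log2 scale. The value was -2.63 in the 4 dpf table and 0.35 at 45 hpf. The interaction stayed called under each alternative except without 4 dpf mutant 3, where the adjusted P was 0.053 (limma).

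tnni2a.3 stood in opposite directions in the 2 tables. All 3 mutants lay below all 3 wild types at 45 hpf, as in 23.7% of the genes tested there. All 3 lay above in the 4 dpf table, as in 5.96% of genes. Its interaction value was 1.02 and did not pass the adjusted threshold, at 0.092 (limma). At 45 hpf its levels were all under 1 TPM, so it was not tested there and entered the interaction fit through the 4 dpf libraries alone.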

How the results depend on the processing

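Depth limits cannot be read from TPM, and 3 libraries per group leave most sarcomere differences between genotypes within the spread of the mutants. The replicate numbers were not used as pairs in the main fits. Same-numbered wild types and mutants deviated from their group means with correlations of -0.31, -0.26 and -0.01 at 45 hpf and -0.15, -0.61 and -0.38 in the 4 dpf table. Other-numbered libraries reached 0.39 at 45 hpf and 0.53 in the 4 dpf table. These correlations carry the scaling of each library, so they cannot show whether pools were paired. The cause of the changes below was not tested.

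At 45 hpf, 95 genes, lower and higher together, and 0 members were called. The replicate block gave 737 genes in all and 21 members lower, against 3.93% of all genes called lower. No filter gave 61 genes and 0 members. A mean of 5 TPM gave 44 genes and 2 members lower (0.375% of all genes), and rescaling gave 2 members lower (0.475%). Without single libraries, counts ran from 34 to 5281 genes and from 0 to 43 members lower, among 0.200 to 31.0% of all genes called lower. Rescaling combined with leaving out each library was chosen after seeing the data. At 45 hpf it gave 0 to 21 members lower, among 0.060 to 11.8% of all genes. In the 4 dpf table it gave 0 to 27 lower, among 0.00586 to 20.2% of all genes, and 0 to 4 higher, among 0 to 16.1%.

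In the 4 dpf table, with 3518 genes, 5 members lower and 1 higher, a pseudocount of 0.1 gave 53 genes, no filter 20, a mean of 5 TPM 1487, rescaling 40 and the replicate block 2. Members lower were 1 with a mean of 5 TPM (13.8% of all genes) and 0 with the other 4 of these (0.0116 to 0.249%). Members higher were 0 with all 5, among 0 to 1.18% of all genes. Single omissions gave 2 to 6131 genes, 0 to 40 members lower, among 0.0121 to 32.7% of all genes, and 0 to 1 higher, among 0 to 3.43%.

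The interaction, with 46 genes called, gave 23 with a pseudocount of 0.1, 22 with the replicate block and 11 to 792 without single libraries. Those omissions gave 0 to 1 member lower, among 0.0119 to 3.44% of all genes. Between wild types, 14 members lower became 14 to 16 without single libraries, among 31.8 to 39.9% of all genes. The 35 higher became 20 to 34, among 19.9 to 26.5% of all genes, with 69 to 79 members tested. The block gave 14 and 33, among 35.4% and 23.8%. A mean of 5 TPM, which tests fewer members, gave 17 higher, among 24.9%.

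Rescaling turned the sign of uncalled differences, to 0.016 for tpm4a, 0.17 for tpm1, 0.26 for myl12.2 and 0.18 for myl6 at 45 hpf, to 0.17 for tpm1, 0.028 for myl12.2 and 0.39 for myl6 in the 4 dpf table, and to 0.23 for tpm2 between wild types. Omitting a library turned others: values ran from -0.15 to 0.063 for myl12.2 and from -0.30 to 0.021 for myl6 at 45 hpf, from -0.12 to 0.14 for myl6 in the 4 dpf table, and between wild types from -0.082 to 0.26 for tnnc1b, from -0.15 to 0.21 for tpm2 and from -0.059 to 0.26 for myl6.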
